A study of Homo sapiens with 12 samples.

Results

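The 35 genes described here encode the factors, cofactors, inhibitors and receptors of blood coagulation and fibrinolysis. They were chosen by a list of gene symbols, not by a rule on their values, but with earlier results of these data known. All 35 were found among the 27249 genes with an Ensembl identifier. RNA sequencing was done on Huh7 and HepG2, human liver cancer lines that the labels name hepatocellular carcinoma cells of wild-type genotype (WT). Each line gave 3 samples labelled sorafenib resistant and 3 labelled sorafenib sensitive, here called parental, so that the 12 samples form 4 groups. Resistant cells were those that survived sorafenib, a kinase inhibitor, at a first dose of 10 μmol (no volume is given) and at rising doses for 8 months; parental cells had no treatment and no time. Each resistant line is thus a single selection of survivors, and no source says that the 3 samples of a group came from separate cultures. P-values then measure the spread between these samples, which may be technical.

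Coagulation is a cascade of proteases that ends in thrombin, which cuts fibrinogen into fibrin. Most of its factors are made by hepatocytes and secreted into plasma, several of them only after a vitamin K-dependent modification in the endoplasmic reticulum. Serpins and other inhibitors restrain the proteases, and plasmin, formed from plasminogen, dissolves the fibrin.

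Levels are given in FPKM, reads scaled by exon length and by the depth of the library, as deposited; this unit was inferred from the values. A library rested on 12290130 to 19286087 reads, as calculated back from the values, and Pearson's r between samples of a group, across genes, was 0.964 to 0.986. All 10 hepatocyte markers were at 1 FPKM or more in every sample. The summed FPKM of 6 endothelial markers was 1.61 to 3.92 and that of 4 megakaryocyte and platelet markers 0.0293 to 0.474. For 6 mesenchymal and 3 blood markers the sums were 1.81 to 5.34 and 0.928 to 2.74 FPKM. In bulk RNA, fewer cells that make a transcript and less of it per cell cannot be told apart. Fold changes are differences on log2(FPKM + 1), resistant minus parental, with the standard error (SE), and they understate the change of genes of low level. A gene was tested where at least 3 of the samples compared reached 1 FPKM. It was called changed where limma's test gave a Benjamini-Hochberg adjusted p-value, over all genes tested, under 0.05 and the log2 fold change was beyond 1.

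The 35 genes spanned levels from 0 to 355 FPKM. In all samples 20 were at 1 FPKM or more and 9 at 10 FPKM or more, while 7 stayed under 1 FPKM in every sample. These 7 were F13A1, F9, F8, VWF, THBD, PLAT and PLAUR, and they were not tested. F13A1, THBD and VWF are known mainly as products of cells other than hepatocytes, but F9, coagulation factor IX, is a liver gene and was at 0 to 4 reads in all 12 samples. FGB led in Huh7, with a mean of 244 ± 44.4 FPKM (SD, n = 3) in parental and 268 ± 13.5 FPKM (SD, n = 3) in resistant cells. In HepG2 SERPIND1, the gene of heparin cofactor II, led with 267 ± 63.8 and 333 ± 27.8 FPKM (SD, n = 3). FGB stood in position 8 in parental HepG2 and in position 16 in resistant HepG2.

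**Figure D1:**
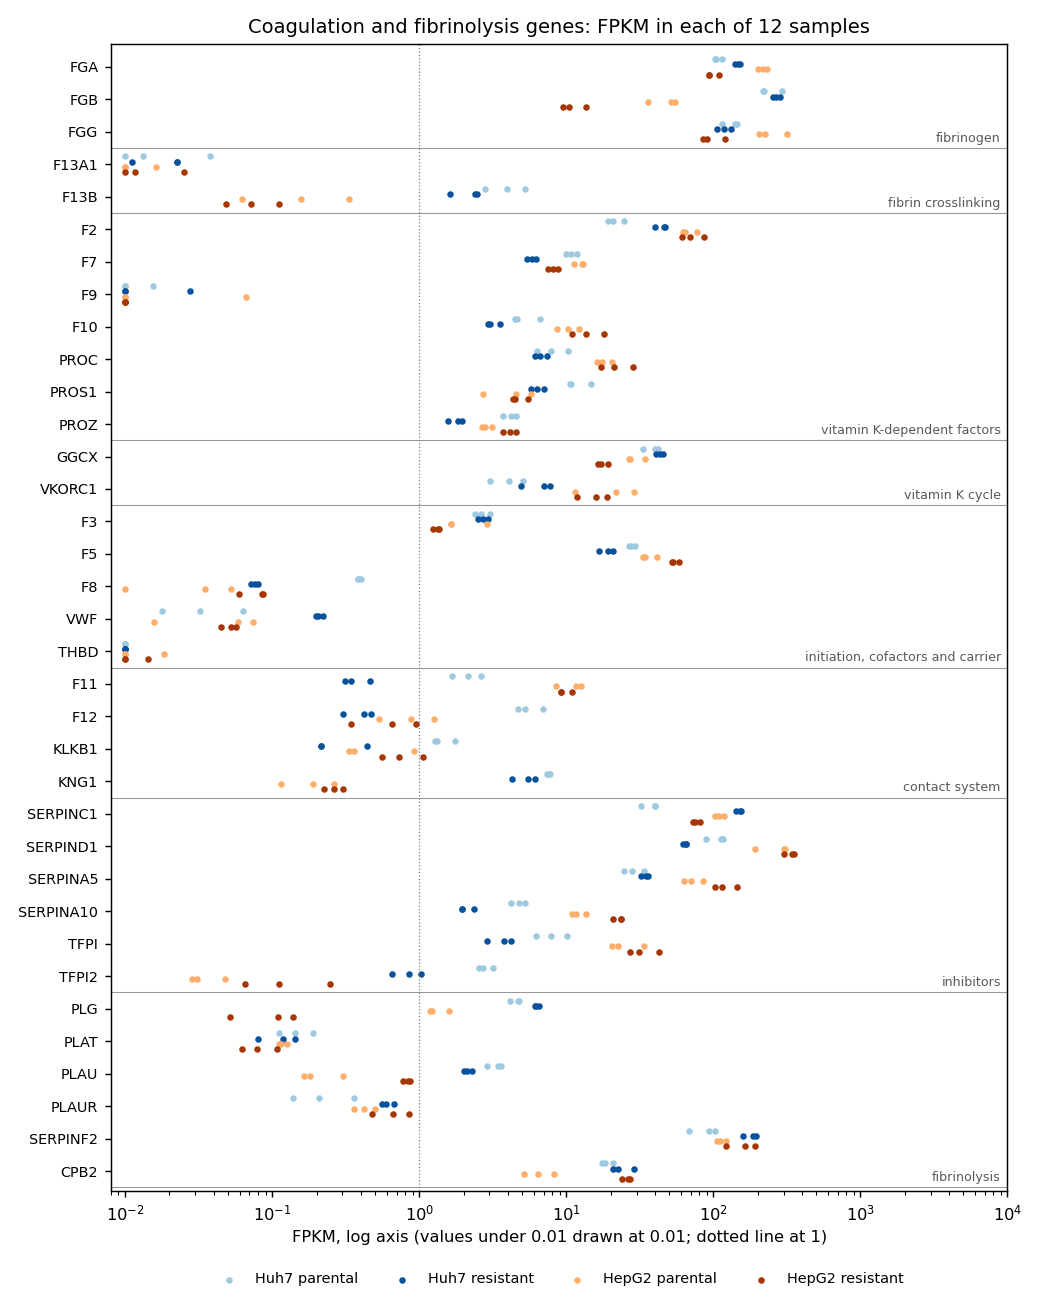
FPKM of each of the 35 genes (vertical axis, grouped by role) in each of the 12 samples (horizontal axis, log scale, with values under 0.01 drawn at 0.01). Points are samples coloured by group; 7 genes lie left of the dotted line at 1 FPKM in every sample, and the fibrinogen chains, SERPINC1, SERPIND1 and SERPINF2 lie farthest to the right.

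In Huh7, 6 of the 28 genes tested were called. SERPINC1, F2 and SERPINF2 were higher in resistant cells and F12, F11 and TFPI2 were lower. That share is near the background, since 22.6% of all 12554 genes tested in Huh7 were called, 8.59% higher and 14% lower. The adjusted p-value alone was under 0.05 for 21 of the 28, against 70.1% of all genes. In HepG2, 5 of 22 were called, against 6.27% of all 11762 genes tested. FGA, FGB, FGG and PLG fell, and CPB2 rose. Over all genes 2.98% were called lower and 3.29% higher in HepG2, and the adjusted p-value alone was under 0.05 for 11 of the 22 genes, against 20% of all. With the GC trend of each library removed, explained below, the same 5 were called, against 6.15% of all genes. The lists of genes called in the lines share no gene, and the test of that difference, the interaction of cell line and resistance, is given gene by gene below. The coagulation genes tested had a median log2 fold change of -0.46 in Huh7 and of 0.11 in HepG2, beside -0.04 and 0.12 over all genes. F11, F12 and KLKB1 in Huh7 and PLG in HepG2 passed the filter through their parental samples only, and TFPI2 in Huh7 through those and a single resistant sample. These genes had to differ, so the counts and medians are given as a description.

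**Figure D2:**
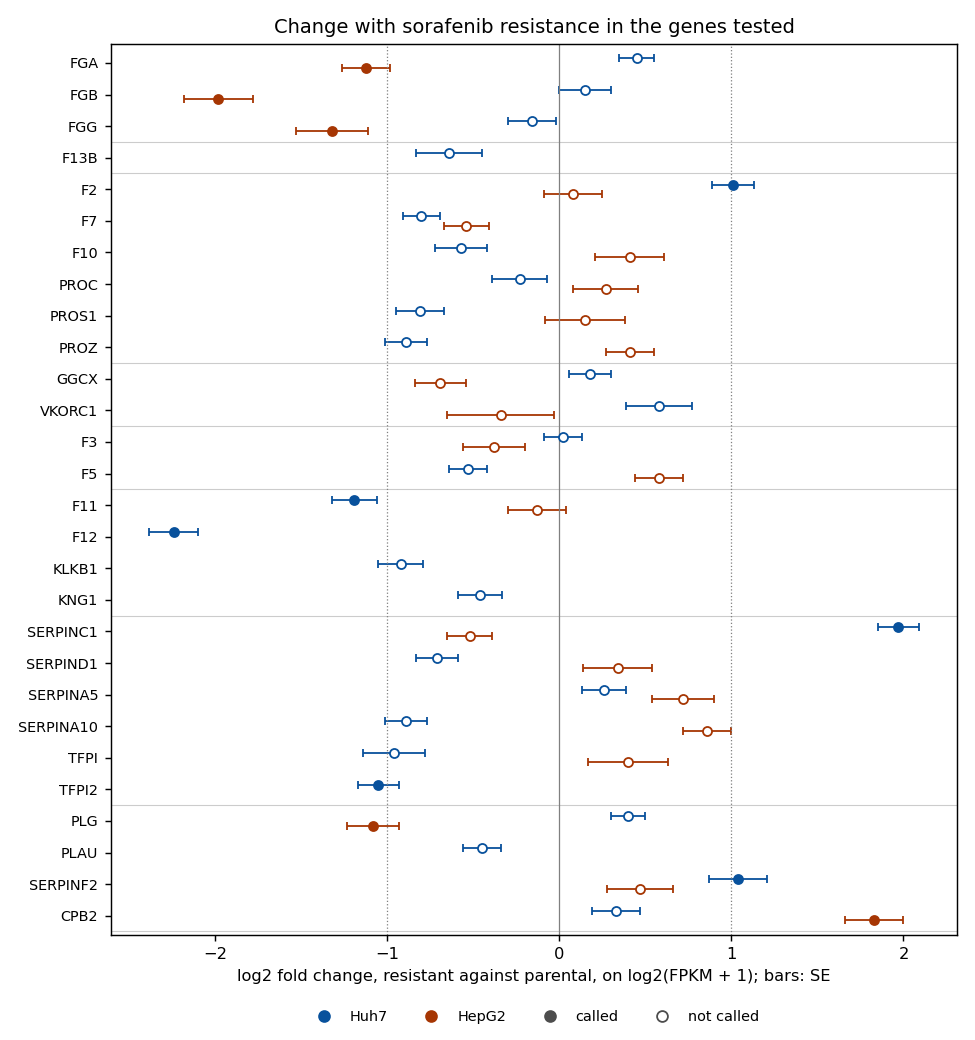
Log2 fold change with resistance on log2(FPKM + 1), with SE (horizontal axis), for each gene tested (vertical axis, grouped by role) in Huh7 (blue) and HepG2 (brown). Filled points are called; dotted lines mark changes of -1 and 1. SERPINC1 and F12 lie outside these lines in Huh7, FGB and CPB2 in HepG2.

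In Huh7, the fold change of a gene moved with its GC content over the whole transcriptome. The Spearman correlation across genes, which are not independent replicates, was 0.62 in Huh7 and 0.04 in HepG2. Huh7 changes of the 28 coagulation genes tested are therefore also given with the GC trend of each library removed. Those of F8, VWF and PLAUR, of the further pathway genes and of the transcription factors are given without this correction. In that fit, 11.9% of all genes tested in Huh7 were called, and 5 of the 28 coagulation genes: SERPINC1 was higher and F12, PROZ, F7 and F10 were lower. The calls of F2, SERPINF2, F11 and TFPI2 ended there. Of the genes called in neither fit, PROC was at -0.77 (adjusted p = 0.000818) where it had been at -0.23, and PLAU at -0.90 (adjusted p = 0.000190). SERPIND1 was at -0.89 and F5 at -0.40. GGCX was at 0.22, F3 at 0.32 and PLG at 0.20, while VKORC1, at 0.03, and SERPINA5, at -0.08, were close to 0. The corrected values of the other genes are given with each gene. Whether base composition has a part in the Huh7 differences was not tested.

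**Figure D3:**
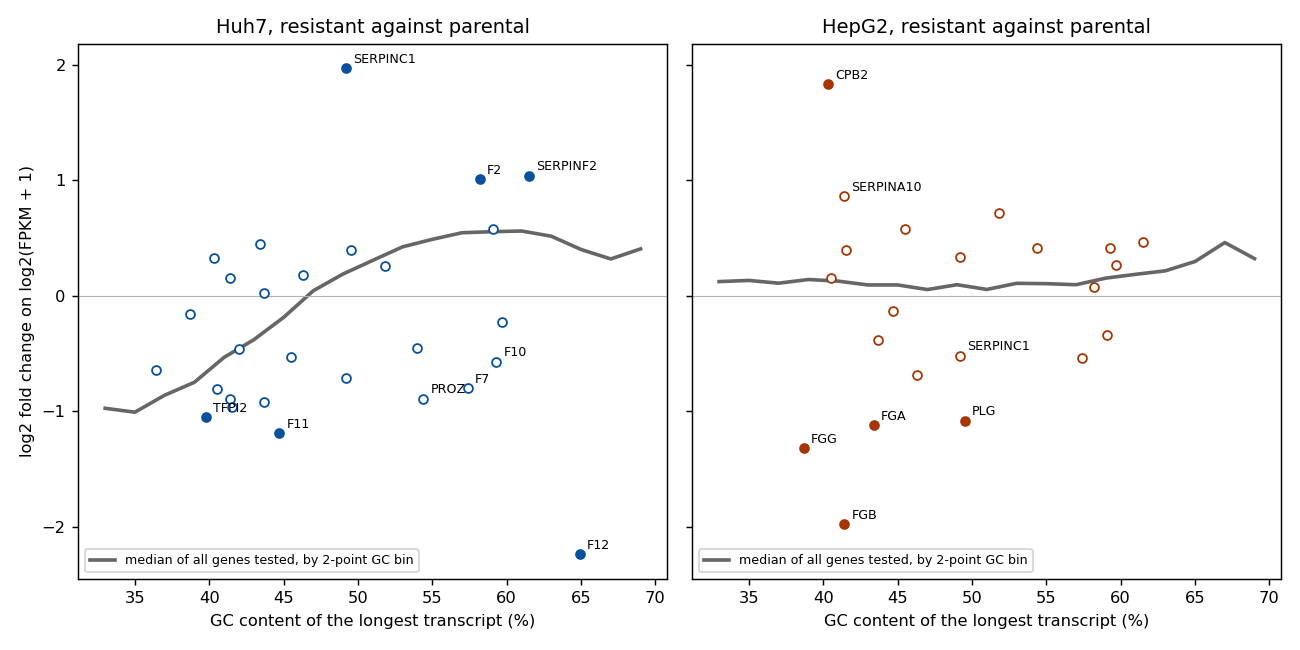
Log2 fold change on log2(FPKM + 1) (vertical axis) against the GC content of the longest transcript (horizontal axis, %) for the genes tested in Huh7 (left) and HepG2 (right). The grey line is the median of all genes tested in bins of 2 percentage points. It climbs from below 0 to above 0 between 33 and 57% GC in Huh7 and is nearly level in HepG2; filled points are called, and F7, F10, PROZ and F12 lie below the Huh7 line.

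Fibrinogen, the fibrin precursor, is a hexamer of Aα, Bβ and γ chains encoded by FGA, FGB and FGG, which lie side by side on chromosome 4 (chr4:154562956-154612967, GRCh38). All 3 chains fell in resistant HepG2, and none was called in Huh7. The 250 bases before the start of these genes are printed here with those of the other genes called in HepG2, because these are the promoters of the genes that moved in that line. The sequences are RefSeq's on GRCh38.p14, written 5′ to 3′ on the strand of the gene. Capitals mark, on either strand, matches to CTGGGAA, the core of the interleukin-6 response element of fibrinogen genes, and to GTTAAT or the longer GTTAATNAT that contains it, the core of the site bound by the liver factor HNF1.
FGB, chr4:154562730-154562979, plus strand: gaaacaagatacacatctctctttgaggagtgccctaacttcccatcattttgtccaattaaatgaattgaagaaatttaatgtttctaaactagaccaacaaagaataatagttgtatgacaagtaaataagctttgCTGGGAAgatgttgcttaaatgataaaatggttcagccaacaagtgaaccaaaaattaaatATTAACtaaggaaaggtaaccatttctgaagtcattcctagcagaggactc
FGA, chr4:154590743-154590992, minus strand: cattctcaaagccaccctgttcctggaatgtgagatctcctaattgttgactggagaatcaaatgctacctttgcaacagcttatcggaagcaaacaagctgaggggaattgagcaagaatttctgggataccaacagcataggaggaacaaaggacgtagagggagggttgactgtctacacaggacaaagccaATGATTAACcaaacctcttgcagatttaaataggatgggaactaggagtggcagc
FGG, chr4:154612657-154612906, minus strand: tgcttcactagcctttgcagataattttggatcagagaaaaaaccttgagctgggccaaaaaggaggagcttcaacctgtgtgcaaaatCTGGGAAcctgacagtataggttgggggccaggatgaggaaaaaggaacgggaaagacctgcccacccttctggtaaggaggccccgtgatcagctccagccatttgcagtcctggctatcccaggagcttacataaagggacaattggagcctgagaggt
PLG, chr6:160701994-160702243, plus strand: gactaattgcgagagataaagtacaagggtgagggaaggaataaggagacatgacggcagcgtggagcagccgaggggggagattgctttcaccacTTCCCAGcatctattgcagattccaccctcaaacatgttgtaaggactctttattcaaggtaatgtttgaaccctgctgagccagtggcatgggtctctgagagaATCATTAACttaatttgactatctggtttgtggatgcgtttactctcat
CPB2, chr13:46105034-46105283, minus strand: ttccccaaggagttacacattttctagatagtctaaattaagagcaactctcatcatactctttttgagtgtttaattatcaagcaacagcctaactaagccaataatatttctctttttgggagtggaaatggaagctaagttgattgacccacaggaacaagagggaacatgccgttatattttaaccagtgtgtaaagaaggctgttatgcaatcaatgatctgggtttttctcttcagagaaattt
CTGGGAA was present in FGB, FGG and PLG, at -112 to -106, -161 to -155 and -154 to -148 from the start. It was found in 5 of the 30 genes that have a window, the others being F9 and F10, and in 9.5% of 14485 windows of all genes. The longer HNF1 letters were present in FGA and PLG and, outside the genes called in HepG2, in F13B, against 0.6% of all windows. The short form was in 7 of 30, FGB included, against 4.9%. CPB2, which rose, holds neither in this window. TTNCNNAA, the C/EBP core, matched 17 of 30 windows (27.1% of all), FGA, FGB, FGG and CPB2 among them. TTCNNNGAA, the STAT site, matched 7 of 30 (6.1% of all), with FGA and CPB2 among them, and CAAAGTCCA, the HNF4 core, matched PROZ (0.3% of all). A match is a description of letters and not a bound site. The RefSeq start of FGG lies 311 bases inside the gene as GENCODE draws it, so its window is not upstream of every FGG transcript.

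FGB had 54.5, 35.7 and 51.7 FPKM in parental HepG2 and 13.6, 9.51 and 10.5 FPKM in resistant HepG2. The groups did not overlap, and the lowest parental sample was above the highest resistant sample. The mean was 4.22-fold lower in resistant cells, with a log2 fold change of -1.98 (SE 0.20, limma adjusted p = 0.000827). FGG had 224, 205 and 316 FPKM in parental and 119, 85.1 and 90 FPKM in resistant HepG2, also without overlap, at -1.32 (SE 0.21, adjusted p = 0.00451). FGA had 201, 230 and 216 FPKM in parental and 93.6, 109 and 93.0 FPKM in resistant HepG2. Its samples lay close together within each group and the change was -1.12 (SE 0.14, adjusted p = 0.00170).

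In Huh7, FGA was at 114, 102 and 104 FPKM in parental and 141, 151 and 146 FPKM in resistant cells, a change of 0.45 (SE 0.10, adjusted p = 0.00472) that is under the fold threshold. FGB overlapped between the Huh7 groups, at 220, 216 and 295 against 256, 265 and 282 FPKM. FGG also overlapped, at 115, 140 and 145 against 105, 132 and 118 FPKM. With the GC trend removed, the Huh7 changes were 0.78 for FGA, 0.66 for FGB and 0.59 for FGG, where FGG had been at -0.16. The change differed between the lines for each chain, Huh7 minus HepG2, by 1.57 (SE 0.14, adjusted p = 1.01e-05) for FGA, by 2.12 (SE 0.26, adjusted p = 6.85e-05) for FGB and by 1.16 (SE 0.26, adjusted p = 0.00298) for FGG. Parental Huh7 had 5.15-fold more FGB than parental HepG2 (log2 difference 2.35, SE 0.21, adjusted p = 2.42e-05) but 2.02-fold less FGA (-1.01, SE 0.14, adjusted p = 0.000287), and FGG was 1.87-fold lower without a call, though called with the GC trend removed (-1.48, adjusted p = 5.68e-05).

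The chains were not at equal levels. The ratio of FGB to FGA within a sample, chosen after the values were seen and not tested, was 1.93, 2.11 and 2.83 in parental and 1.81, 1.76 and 1.93 in resistant Huh7. It was 0.271, 0.156 and 0.239 in parental and 0.145, 0.0869 and 0.113 in resistant HepG2. FGB was thus the most abundant chain in every Huh7 sample and the least abundant in every HepG2 sample. The ratio of FGG to FGA was 0.747 to 1.46 over all 12 samples. The 3 chains summed to 448 to 548 FPKM in Huh7, and to 470 to 584 FPKM in parental and 194 to 226 FPKM in resistant HepG2.

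**Figure D4:**
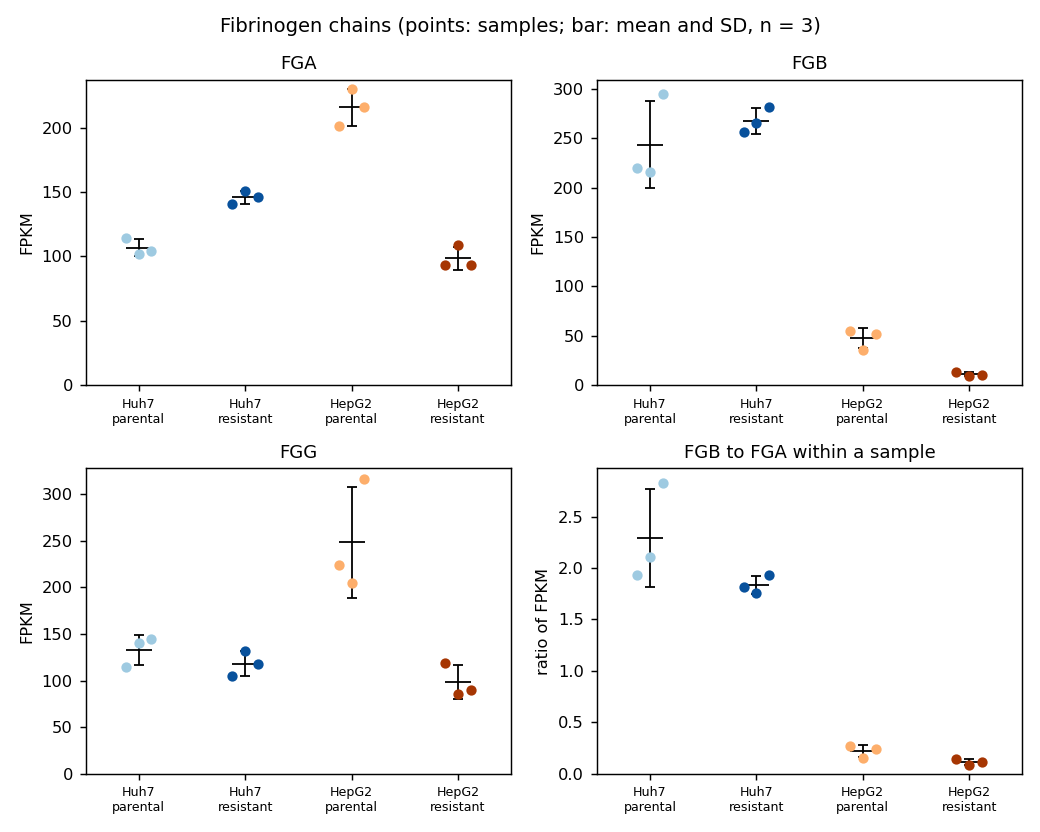
FPKM of FGA, FGB and FGG and the ratio of FGB to FGA in each sample (points), with the mean and SD of each group (bars, n = 3); vertical axes start at 0. In HepG2 the resistant samples lie below all parental samples for each chain, at 9.51 to 13.6 FPKM for FGB.

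Factor XIII crosslinks fibrin, with catalytic A subunits from F13A1 and carrier B subunits from F13B. F13A1 was at 0 to 3 reads in every sample. F13B was at 2.80, 3.93 and 5.20 FPKM in parental and 2.39, 2.48 and 1.61 FPKM in resistant Huh7, a change of -0.64 (SE 0.19, adjusted p = 0.0171) under the fold threshold and of 0.25 with the GC trend removed. In HepG2 it was at 0.0622, 0.332 and 0.156 FPKM in parental and 0.0482, 0.112 and 0.0712 FPKM in resistant cells, which are 2 to 12 reads a sample. Parental Huh7 had 21.7-fold more F13B than parental HepG2 (log2 difference 2.05, SE 0.19, adjusted p = 3.32e-05). F13B passed the filter of that comparison through Huh7 only, so it had to be higher there.

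The vitamin K-dependent genes comprise the procoagulant factors II (prothrombin, F2), VII, IX and X and the anticoagulant proteins C, S and Z, protein Z being the cofactor of the inhibitor ZPI. F2 was called among the 6 tested in Huh7, and none was called in HepG2. F2 had 24.5, 19.3 and 20.7 FPKM in parental and 46.7, 39.9 and 45.9 FPKM in resistant Huh7, with no overlap. The change was 1.01 (SE 0.12, adjusted p = 0.000173), and 0.47 with the GC trend removed. Without resistant replicate 1 or 3, or parental replicate 2 or 3, it was 0.97, 0.98, 0.94 and 0.99, and the call ended. In HepG2, F2 overlapped between the groups, at 64.6, 77.2 and 62.2 against 61.1, 86.8 and 69.1 FPKM. The changes of F2 differed between the lines by 0.93 (SE 0.21, adjusted p = 0.00281).

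F7, F10 and PROZ are neighbours on chromosome 13 (chr13:113105788-113172383, GRCh38). The samples of the Huh7 groups did not overlap for any of them, nor for 74.5% of all genes tested in Huh7. F7, the factor that binds tissue factor, was at 11.9, 9.90 and 10.8 FPKM in parental and 5.81, 5.44 and 6.18 FPKM in resistant Huh7. F10, which as factor Xa activates prothrombin, was at 6.58, 4.51 and 4.62 against 3.02, 2.93 and 3.55 FPKM, and PROZ at 3.68, 4.56 and 4.23 against 1.83, 1.56 and 1.96 FPKM. All 3 genes passed the adjusted p threshold with changes under the fold threshold, at -0.80 (SE 0.11, adjusted p = 0.000294), -0.57 (SE 0.15, adjusted p = 0.00816) and -0.89 (SE 0.12, adjusted p = 0.000258). Their GC contents were 57.4, 59.3 and 54.4%. They were called lower with the GC trend removed, at -1.33 for F7, -1.11 for F10 and -1.35 for PROZ. On read counts PROZ was called, at -1.21 (SE 0.22, limma-voom adjusted p = 1.20e-05).

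In HepG2 none of these neighbours was called. F7 was at 11.2, 12.8 and 13 FPKM in parental and 8.15, 8.72 and 7.53 FPKM in resistant cells (-0.54, SE 0.13, adjusted p = 0.0249). F10 was at 12.1, 10.3 and 8.58 against 11, 18.1 and 13.6 FPKM, and PROZ at 2.79, 3.13 and 2.67 against 4.15, 4.56 and 3.73 FPKM. The change differed between the lines for F10 (-0.98, SE 0.26, adjusted p = 0.00790) and PROZ (-1.30, SE 0.15, adjusted p = 5.81e-05) but was not shown to differ for F7 (-0.25, SE 0.14, adjusted p = 0.155; -0.61, adjusted p = 0.00232 with the GC trend removed).

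PROS1, the gene of the activated protein C cofactor protein S, was at 10.8, 10.6 and 14.7 FPKM in parental and 5.78, 7.02 and 6.34 FPKM in resistant Huh7. The groups did not overlap and the change was -0.81 (SE 0.14, adjusted p = 0.00118), but -0.21 with the GC trend removed. In HepG2 PROS1 overlapped, at 4.54, 2.70 and 5.74 against 5.49, 4.32 and 4.46 FPKM. The lines differed in its change by -0.96 (SE 0.29, adjusted p = 0.0142), and by -0.27 (adjusted p = 0.257) with the GC trend removed. PROC, the protein C gene, overlapped between the groups of Huh7, at 10.2, 7.90 and 6.33 against 6.15, 6.59 and 7.34 FPKM, and of HepG2, at 16.2, 17.5 and 20.3 against 17.1, 28.3 and 21.2 FPKM. Of the parental lines, Huh7 had less F2 (-1.62, SE 0.15, adjusted p = 3.14e-05) and less PROC (-1.07, SE 0.18, adjusted p = 0.000957) and more PROS1 (1.32, SE 0.24, adjusted p = 0.00140). PROC was at -0.88 and PROS1 at 0.82 with the GC trend removed, both without a call.

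GGCX, the carboxylase that modifies these factors, and VKORC1, the warfarin target that recycles vitamin K, were called in neither line. GGCX was at 41.7, 39.8 and 33.0 FPKM in parental and 43.4, 45.4 and 40.9 FPKM in resistant Huh7, where the groups overlapped. In HepG2 it was at 26.9, 34.2 and 26.6 against 16.5, 19.1 and 17.3 FPKM without overlap (-0.69, SE 0.15, adjusted p = 0.0159). The change of GGCX differed between the lines by 0.87 (SE 0.18, adjusted p = 0.00161). VKORC1 spread widely, at 29, 21.9 and 11.5 FPKM in parental HepG2 against 11.8, 15.8 and 18.9 FPKM in resistant HepG2. It was lower in parental Huh7, at 5.06, 3.03 and 4.10 FPKM (-2.04, SE 0.31, adjusted p = 0.000563), and at 7.72, 7 and 4.92 FPKM in resistant Huh7. Other annotated genes cover 34.7% of its exon bases on the same strand and 58.1% on the opposite strand, so its values are uncertain.

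Tissue factor (F3) starts the cascade on cell surfaces, and factor V (F5) is the cofactor of factor Xa. Neither was called with resistance. F3 was at 2.39 to 3.02 FPKM in all 6 Huh7 samples, and at 1.64, 1.64 and 2.90 in parental against 1.33, 1.24 and 1.37 FPKM in resistant HepG2 (-0.38, SE 0.18, adjusted p = 0.178). F5 was at 27.4, 29.2 and 26.6 FPKM in parental and 16.8, 20.8 and 19.3 FPKM in resistant Huh7. In HepG2 the order was opposite, with 41.3, 33.1 and 34.5 FPKM in parental and 58.2, 52.3 and 53.5 FPKM in resistant cells. Neither pair of groups overlapped, and the changes of F5, -0.53 in Huh7 and 0.58 in HepG2, differed by -1.11 (SE 0.16, adjusted p = 0.000182).

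F8, VWF and THBD were under the filter, and values for F8, the cofactor of factor IXa, and VWF, its carrier in plasma, are given as reads. F8 was at 75, 74 and 68 reads in parental and 15, 17 and 16 reads in resistant Huh7. VWF was at 6, 11 and 3 reads in parental and 44, 41 and 39 reads in resistant Huh7. In a fit on read counts that was added after the data were seen, F8 was lower (-2.31, SE 0.31, limma-voom adjusted p = 5.68e-08) and VWF higher (2.53, SE 0.44, adjusted p = 3.95e-06). That fit called 13 of 32 coagulation genes with at least 10 reads in at least 3 Huh7 samples, 5 higher and 8 lower, against 36.7% of all genes tested. VWF passed this read filter through the resistant samples and a single parental sample, so the filter favoured a rise. No value with the GC trend removed is given for F8 and VWF, with GC contents of 41.6 and 58.5%. In the GC bins of these 2 genes, the median Huh7 change of all genes tested was -0.533 and 0.555 on log2(FPKM + 1). In HepG2 F8 had 5, 1 and 9 against 16, 12 and 16 reads and VWF 8, 2 and 12 against 10, 10 and 8 reads, both without a call (adjusted p = 0.0725 and 0.795). F8 passed the read filter there through the resistant samples only. Beside VWF, the summed level of the 6 endothelial markers was 1.61 to 1.70 FPKM in parental and 2.09 to 2.30 FPKM in resistant Huh7. Most of it was PECAM1, and CLDN5 was at 0.19 to 0.211 FPKM in parental and 0.136 to 0.291 FPKM in resistant Huh7. CDH5, TEK, TIE1 and ERG were each at 0 to 0.0414 FPKM, with ERG at 0 in every resistant sample. The summed level of the 4 megakaryocyte and platelet markers was 0.0334 to 0.0428 against 0.0665 to 0.474 FPKM, with 3 of them at 0 in parental Huh7. The part of such cells in the VWF reads was not tested. VWF has a partial pseudogene copy, so its reads are uncertain. THBD, thrombomodulin, was at 0 reads in Huh7 and at 0 or 1 read in HepG2.

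The contact system starts the intrinsic pathway. F12 encodes factor XII, KLKB1 plasma prekallikrein, KNG1 the kininogen that carries it, and F11 the factor XI they activate; KLKB1 and F11 are neighbours on chromosome 4 (chr4:186208979-186288806, GRCh38). F12 (chr5:177402140-177409576, minus strand) had 6.94, 5.27 and 4.69 FPKM in parental and 0.305, 0.468 and 0.418 FPKM in resistant Huh7. The groups did not overlap, and in reads they were 210 to 345 against 16 to 25. The mean was 14.2-fold lower in resistant cells, at a log2 fold change of -2.24 (SE 0.14, adjusted p = 1.37e-05). F12 passed the filter through its parental samples only, so it had to be lower in resistant cells. With the GC trend removed the change was -2.70; at 64.9%, F12 had the highest GC content of the 35 genes. F12 shares 14.4% of its exon bases with GRK6 on the opposite strand, and the library kit named in the labels does not mark strand.

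F11 had 1.67, 2.15 and 2.61 FPKM in parental and 0.345, 0.462 and 0.313 FPKM in resistant Huh7. In reads these were 101, 122 and 142 against 22, 30 and 20. Its mean was 5.75-fold lower, at -1.19 (SE 0.13, adjusted p = 0.000129) and, with the GC trend removed, at -0.98. KLKB1 was at 1.28, 1.31 and 1.74 against 0.214, 0.439 and 0.214 FPKM, 4.99-fold lower in the mean. On log2(FPKM + 1) the change of KLKB1 was -0.92 (SE 0.13, adjusted p = 0.000304) and not called. It was smaller with the GC trend removed, at -0.62 (adjusted p = 0.00201), but on read counts it was called, at -2.35 (SE 0.34, limma-voom adjusted p = 1.57e-07). F11 and KLKB1 passed the filter at 1 FPKM through their parental samples only, so both had to be lower in resistant cells. KNG1 was at 7.76, 7.42 and 7.59 against 4.25, 6.11 and 5.49 FPKM (-0.46, SE 0.13, adjusted p = 0.0121; -0.01 with the GC trend removed). Antisense genes cover 10.5% of the exon bases of F11 and 15.4% of those of KNG1. CYP4V2, on the same strand, covers 6.8% of those of KLKB1.

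In HepG2 F11 stayed high, at 11.7, 8.54 and 12.5 FPKM in parental and 11, 9.22 and 9.15 FPKM in resistant cells, with overlap (-0.13, SE 0.17, adjusted p = 0.608). F12 was at 0.880, 1.26 and 0.528 against 0.341, 0.948 and 0.651 FPKM and KLKB1 at 0.361, 0.331 and 0.926 against 1.06, 0.556 and 0.728 FPKM. KNG1 was at 0.114, 0.261 and 0.190 against 0.265, 0.304 and 0.224 FPKM, which are 7 to 26 reads in each HepG2 sample. The interaction was called lower in Huh7 for each of the 4 genes, beside 56.3% of all genes in either direction and 33.2% lower. It was -1.05 for F11 (SE 0.21, adjusted p = 0.00168) and -2.04 for F12 (SE 0.25, adjusted p = 7.79e-05). For KLKB1 it was -1.14 (SE 0.23, adjusted p = 0.00141) and for KNG1 -0.55 (SE 0.16, adjusted p = 0.0132). F12 and KLKB1 passed the filter of that fit through parental Huh7 and a single HepG2 sample, so the filter favoured a lower value in Huh7. The value of KNG1 was -0.03 (adjusted p = 0.906) with the GC trend removed. Parental Huh7 had less F11 than parental HepG2 (-1.92, SE 0.18, adjusted p = 4.05e-05), more F12 (1.82, SE 0.19, adjusted p = 6.89e-05) and 40.3-fold more KNG1 (2.85, SE 0.12, adjusted p = 5.15e-07). In that comparison KNG1 passed the filter through Huh7 only, and F12 through Huh7 and a single HepG2 sample. The filter thus favoured more of both in Huh7, and their values are a description.

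The inhibitors comprise antithrombin (SERPINC1), heparin cofactor II (SERPIND1), protein C inhibitor (SERPINA5), the protein Z-dependent inhibitor ZPI (SERPINA10) and the tissue factor pathway inhibitors (TFPI, TFPI2). Antithrombin inactivates thrombin and factor Xa. SERPINC1 (chr1:173903804-173917378, minus strand) had 40.0, 40.0 and 32.4 FPKM in parental and 152, 143 and 154 FPKM in resistant Huh7. The groups were far apart and the mean was 3.99-fold higher, at 1.97 (SE 0.12, adjusted p = 1.06e-05) and, with the GC trend removed, at 1.79. In HepG2 it was at 103, 118 and 109 FPKM in parental and 72.6, 81.4 and 74.5 FPKM in resistant cells, without overlap and with the resistant samples lower (-0.52, SE 0.13, adjusted p = 0.0275; under the fold threshold). The difference between the lines, 2.50 (SE 0.15, adjusted p = 6.60e-07), had the lowest adjusted p-value among the 35 genes.

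The ratio of SERPINC1 to F2, inhibitor to proenzyme, was chosen after the values were seen and was not tested. It was 1.64, 2.08 and 1.56 in parental and 3.25, 3.58 and 3.35 in resistant Huh7, and 1.59, 1.53 and 1.75 in parental and 1.19, 0.938 and 1.08 in resistant HepG2. The parental samples of the lines overlapped, and the resistant samples lay above all of them in Huh7 and below all of them in HepG2.

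TFPI2, a broad inhibitor of serine proteases, was at 2.55, 3.19 and 2.72 FPKM in parental and 0.851, 1.03 and 0.652 FPKM in resistant Huh7 (-1.05, SE 0.12, adjusted p = 0.000153). With the GC trend removed the change was -0.39, and without resistant replicate 3 or parental replicate 2 it was -0.97 and -0.98, all without a call. In HepG2 TFPI2 had 1, 1 and 2 reads in parental and 5, 12 and 3 in resistant cells. The lines differed in its change by -1.19 (SE 0.15, adjusted p = 8.79e-05), or by -0.44 (adjusted p = 0.0748) with the GC trend removed. TFPI2 passed the filter of that fit through parental Huh7 and a single resistant Huh7 sample, so the filter favoured a lower value in Huh7. TFPI, the inhibitor of the tissue factor and factor VIIa complex, was at 6.23, 7.83 and 10.1 FPKM in parental and 3.78, 4.20 and 2.88 FPKM in resistant Huh7 (-0.96, SE 0.18, adjusted p = 0.00148; -0.46 with the GC trend removed). In HepG2 it overlapped, at 33.5, 20.4 and 22.5 against 42.8, 27.3 and 31.3 FPKM. Its change differed between the lines by -1.36 (SE 0.32, adjusted p = 0.00379), or by -0.78 (adjusted p = 0.0220) with the GC trend removed.

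SERPINA10 was at 4.74, 5.26 and 4.18 FPKM in parental and 1.94, 2.36 and 1.95 FPKM in resistant Huh7 (-0.89, SE 0.12, adjusted p = 0.000272), and at 11.6, 10.9 and 13.5 against 23.7, 20.7 and 23.5 FPKM in HepG2 (0.86, SE 0.14, adjusted p = 0.00529). Neither pair of groups overlapped, and the changes, each under the fold threshold, differed by -1.76 (SE 0.16, adjusted p = 1.09e-05). With the GC trend removed the Huh7 change of SERPINA10 was -0.38 (adjusted p = 0.0120) and the difference between the lines -1.17 (adjusted p = 2.57e-05). PROZ, whose protein is the cofactor of ZPI, had the same order in each line. SERPIND1 was at 112, 116 and 89.7 against 64.7, 62.1 and 64.8 FPKM in Huh7 (-0.71, SE 0.12, adjusted p = 0.00104). In HepG2 it was at 305, 302 and 193 against 301, 355 and 342 FPKM, with overlap, and the lines differed by -1.06 (SE 0.24, adjusted p = 0.00349). SERPINA5 was at 33.9, 24.5 and 27.8 against 35.8, 32.4 and 34.9 FPKM in Huh7, and at 62.7, 85.0 and 70.3 against 103, 144 and 114 FPKM in HepG2 (0.72, SE 0.18, adjusted p = 0.0263). Parental Huh7 had less of all inhibitors but TFPI2 than parental HepG2, with differences of -1.53 for SERPINC1, -1.30 for SERPIND1, -1.31 for SERPINA5, -1.18 for SERPINA10 and -1.54 for TFPI (adjusted p = 3.22e-05 to 0.000865). TFPI2 was higher there (1.88, SE 0.11, adjusted p = 2.57e-06), but it passed the filter of that comparison through Huh7 only and so had to be.

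**Figure D5:**
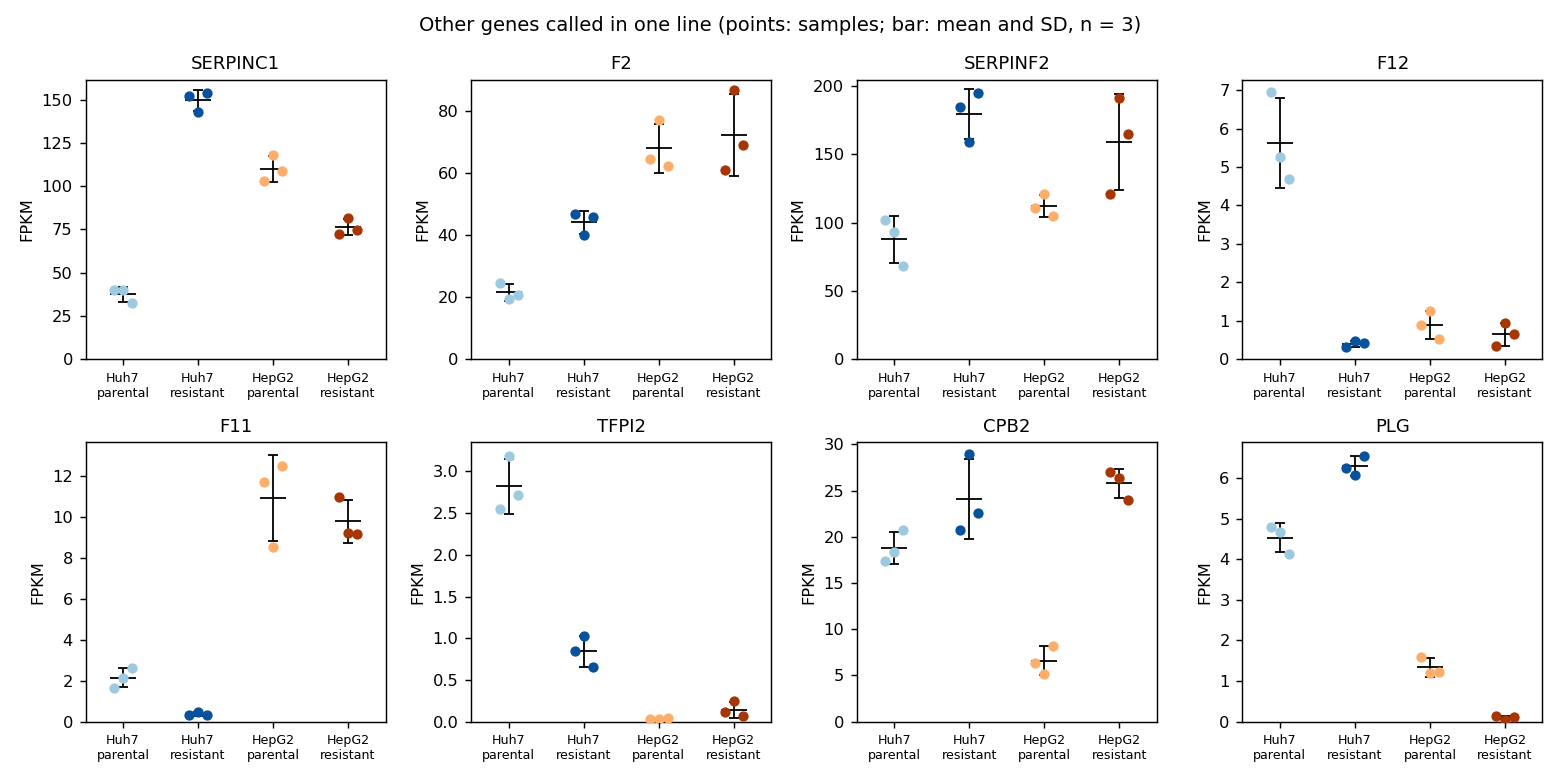
FPKM of the 8 genes other than fibrinogen that were called in Huh7 or HepG2, in each sample (points), with the mean and SD of each group (bars, n = 3); every vertical axis starts at 0 and has its own scale. In resistant Huh7 SERPINC1 lies at 143 to 154 FPKM and F12 at 0.305 to 0.468 FPKM, and in resistant HepG2 CPB2 lies at 24.0 to 27.0 FPKM and PLG at 0.0514 to 0.139 FPKM.

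Of the fibrinolysis genes, plasminogen (PLG) is the precursor of plasmin, PLAT and PLAU encode its activators tPA and uPA, PLAUR the receptor of uPA, SERPINF2 the plasmin inhibitor α2-antiplasmin, and CPB2 the carboxypeptidase TAFI, which slows the breakdown of fibrin. In resistant HepG2 PLG fell and CPB2 rose. PLG (chr6:160702238-160753315, plus strand) was at 1.60, 1.19 and 1.22 FPKM in parental and 0.139, 0.0514 and 0.109 FPKM in resistant HepG2. In reads these were 134, 93 and 122 against 15, 6 and 12, with no overlap, and the mean was 13.4-fold lower. The change was -1.08 on log2(FPKM + 1) (SE 0.15, adjusted p = 0.00244) and -3.78 on read counts (SE 0.38, limma-voom adjusted p = 1.20e-05). PLG passed the filter at 1 FPKM through its parental samples only, so it had to be lower in resistant cells. Both values come from the same samples and are a description. PLG has close copies in the genome, LPA and the PLGLB genes, so its reads could be split. In Huh7 it was at 4.80, 4.67 and 4.12 against 6.25, 6.08 and 6.55 FPKM (0.40, SE 0.10, adjusted p = 0.00795), and the lines differed by 1.48 (SE 0.14, adjusted p = 1.40e-05).

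CPB2 (chr13:46053195-46105033, minus strand) had 6.39, 5.17 and 8.23 FPKM in parental and 27.0, 26.3 and 24.0 FPKM in resistant HepG2. The groups did not overlap, and the mean was 3.90-fold higher, at 1.83 (SE 0.17, adjusted p = 0.000551). In Huh7 it lay at 17.4, 18.3 and 20.7 against 20.7, 29 and 22.6 FPKM (0.33, SE 0.14, adjusted p = 0.0650; 0.94 with the GC trend removed). The lines differed in its change by -1.50 (SE 0.22, adjusted p = 0.000246). Resistant HepG2, at 24.0 to 27.0 FPKM, thus reached the range of resistant Huh7, at 20.7 to 29 FPKM, where parental HepG2 had been below parental Huh7 (log2 difference 1.40, SE 0.17, adjusted p = 0.000168; 0.89 and no call with the GC trend removed).

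SERPINF2 rose in Huh7, from 102, 92.8 and 68.4 FPKM in parental to 185, 159 and 195 FPKM in resistant cells (1.04, SE 0.17, adjusted p = 0.000646). It was at 0.52 with the GC trend removed, and without resistant replicate 3 or parental replicate 3 at 0.98 and 0.87, all without a call. In HepG2 the highest parental and the lowest resistant sample lay at about the same level, with 111, 121 and 105 FPKM in parental and 121, 191 and 165 FPKM in resistant cells (0.47, SE 0.19, adjusted p = 0.106). The changes of SERPINF2 were not shown to differ between the lines (0.57, SE 0.26, adjusted p = 0.0832). PLAU was at 3.57, 3.44 and 2.87 against 2.11, 2.28 and 2.00 FPKM in Huh7 (-0.45, SE 0.11, adjusted p = 0.00655). In HepG2 it was under the filter, with 7, 6 and 14 reads in parental and 42, 42 and 44 reads in resistant cells, and the added fit on read counts called it higher (1.90, SE 0.36, limma-voom adjusted p = 0.00199). PLAU passed the read filter of this added fit through the resistant samples and a single parental sample, which favoured a rise. That fit called 6 of 30 coagulation genes in HepG2, against 12.2% of all genes tested. The lines differed in the change of PLAU by -1.04 (SE 0.14, adjusted p = 0.000106). C10orf55 on the opposite strand covers 31.1% of the exon bases of PLAU, so its values are uncertain. PLAUR had 11, 27 and 15 reads in parental and 50, 58 and 47 reads in resistant Huh7, and was called higher in the same fit (1.45, SE 0.34, limma-voom adjusted p = 0.000316). No value with the GC trend removed is given for PLAUR, with a GC content of 55.7%. PLAT stayed at 7 to 21 reads in all 12 samples.

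The interaction was called for 21 of the 28 genes tested, 7 with a higher value in Huh7 and 14 with a lower one. The background was high, since 56.3% of all 13800 genes tested were called, 23.1% with a higher value in Huh7 and 33.2% with a lower one. The 7 not called were F13B, F7, PROC, VKORC1, F3, SERPINA5 and SERPINF2. With the GC trend removed 22 were called, against 7686 of all 13791 genes tested. F7, PROC (-0.83, adjusted p = 0.00204), F3 (0.78, adjusted p = 0.00375) and SERPINA5 (-0.67, adjusted p = 0.00471) were then called, and PROS1, KNG1 and TFPI2 were not. The differences of F2, at 0.57, and CPB2, at -0.81, were also smaller in that fit, and that of FGG, at 1.99, was larger. F12, KLKB1 and TFPI2 passed the interaction filter through parental Huh7 and a single other sample, so the filter favoured a lower value in Huh7. KNG1, TFPI2 and PLAU were under 1 FPKM in every HepG2 sample, where log2(FPKM + 1) can move little. The interaction counts are thus given as a description. Samples of the resistant and parental groups did not overlap for 20 of 28 genes in Huh7, against 74.5% of all genes tested, and for 14 of 22 in HepG2, against 40.4%.

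Between the parental lines, 19 of 28 genes were called, 9 higher and 10 lower in Huh7, against 31.9% of all 12796 genes tested (19.4% higher and 12.5% lower). The adjusted p-value alone was under 0.05 for 24 of them, against 65.2%, and the samples of the lines did not overlap for 25, against 70.0%. The parental samples are those of the comparisons above. F13B, KNG1, TFPI2, PLAU and KLKB1 passed the filter through Huh7 only, and F12 through Huh7 and a single HepG2 sample, so they had to differ. All of them but KLKB1 are among the 9 that were higher in Huh7. PLAU was at 2.87 to 3.57 FPKM there against 0.165 to 0.302 FPKM in HepG2 (1.82, SE 0.12, adjusted p = 5.04e-06), and PLG at 4.12 to 4.80 against 1.19 to 1.60 FPKM (1.25, SE 0.13, adjusted p = 7.74e-05).

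A further 28 genes of the pathway that are not among the 35 were counted. In Huh7, 4 of the 20 tested were called higher and 1 lower, beside 8.59% and 14% of all genes tested. The share called, 25%, is near the background of 22.6%. The Huh7 changes given for these genes are without removal of the GC trend. F2RL2, a thrombin-responsive receptor, rose from 3.10, 3.32 and 3.74 to 17.8, 20.1 and 19.4 FPKM (2.20, SE 0.11, adjusted p = 5.17e-06), and SERPING1, the C1 inhibitor that also restrains factor XIIa and kallikrein, from 43.8, 38.7 and 32.8 to 126, 96.4 and 115 FPKM (1.52, SE 0.15, adjusted p = 6.71e-05). ASGR2, a subunit of the asialoglycoprotein receptor, went from 87, 71.8 and 71.7 to 213, 173 and 193 FPKM (1.32, SE 0.13, adjusted p = 7.69e-05). PROCR, the endothelial protein C receptor, was at 0.361, 0.210 and 0.219 FPKM in parental and 2.52, 2.20 and 2.64 FPKM in resistant Huh7 and was called higher (1.45). The fibrinogen-like gene FGL1 was at 1.71, 1.67 and 2.31 against 0.335, 0.267 and 0.335 FPKM and was called lower (-1.13). PROCR passed the filter through the resistant samples only and FGL1 through the parental samples only, so both had to differ, as did HRG, which was not called. In HepG2, 2 of 16 were called lower, against 2.98% of all genes tested, the receptor F2RL1 among them, at 28.4, 20.5 and 23 FPKM in parental and 10.9, 9.95 and 11.4 FPKM in resistant cells (-1.08, SE 0.16, adjusted p = 0.00308).

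Of 15 transcription factors known to bind promoters of liver coagulation genes, 13 were tested in each line. In Huh7 1 was called, 7.69% against 22.6% of all genes tested. In HepG2 2 were called lower, CEBPB among them, 15.4% against 6.27% of all genes called in either direction. FOXA3 was higher in resistant Huh7, at 30.7, 24.3 and 19.3 FPKM in parental and 70, 56.3 and 60.9 FPKM in resistant cells (1.32, SE 0.17, adjusted p = 0.000225). This change of FOXA3 is without removal of the GC trend. CEBPB was lower in resistant HepG2, at 42.5, 51.7 and 36.9 against 19.3, 20.1 and 16.8 FPKM (-1.17, SE 0.16, adjusted p = 0.00255). The part of these factors in the levels of the coagulation genes was not tested.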

How the data were processed

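RNA of 12 samples was sequenced by a service provider after NEBNext Ultra library preparation; RNA extraction is given as RNeasy in the labels and as TRIzol in the methods, and the aligner, the counting tool and the unit are not given in the sources used here. The submitters' processing notes name bcl2fastq and GRCh38. The FPKM values were made by the authors and used as deposited. The unit was inferred from the values; whether reads or fragments were counted cannot be told from them. In single-exon genes the values times exon length are whole multiples of a step for each sample, from which reads were calculated back; 96.3 to 96.5% of values of up to 2000 reads were within 0.05 of a whole number. These reads carry no molecular identifiers, so counting error is a lower limit. Gene positions, exon lengths and GC content came from GENCODE release 29.

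Groups and replicate numbers came from the labels. Genes that reached 1 FPKM in 3 or more of the compared samples were fitted with limma 3.58.1 in R 4.3.3 on log2(FPKM + 1), with empirical Bayes and a variance trend; the design had left the choice between this test and a count test to the unit. Each line was fitted on its own 6 samples, the interaction on all 12. The scripts were tested on simulated data. Tables were read with Python 3.11.15 and pandas 2.3.3.

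The 35 genes, their roles and the other lists were chosen with earlier results of these data known. Values in every sample, as FPKM or reads, are given for those of the 35 genes called in any comparison; of the other lists, the genes called with the largest changes are named, except that some are not reported here. Alternatives were another pseudocount (0.1), no filter, other scalings, limma-voom on the reads calculated back, a fit on all 12 samples, no variance trend, a replicate block, removal of each library's GC trend (lowess, span 0.3), the adjusted p alone, leaving out each sample and, added after the data were seen, limma-voom on genes with at least 10 reads in at least 3 samples. Promoter windows are RefSeq's; 30 of the 35 genes matched. The protein sequences that the design named were not used here. No column of per-sample values was left unused.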

Additional observations from a re-analysis of the deposited data

Results flagged for a closer look

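The change with resistance differed between Huh7 and HepG2 for 21 genes, by the interaction of cell line and resistance over all 12 samples (limma, adjusted p under 0.05; 56.3% of all genes tested passed). Values are the log2 change in Huh7 minus that in HepG2. For F12, KLKB1 and TFPI2 the filter favoured a lower value in Huh7, as described above. Among fibrinogen chains the difference was 1.57 for FGA, 2.12 for FGB and 1.16 for FGG. Among vitamin K-dependent genes and their carboxylase it was 0.93 for F2, -0.98 for F10, -0.96 for PROS1, -1.30 for PROZ and 0.87 for GGCX. It was -1.11 for F5. In the contact system it was -1.05 for F11, -2.04 for F12, -1.14 for KLKB1 and -0.55 for KNG1. Among inhibitors it was 2.50 for SERPINC1, -1.06 for SERPIND1, -1.76 for SERPINA10, -1.36 for TFPI and -1.19 for TFPI2. Among fibrinolysis genes it was 1.48 for PLG, -1.04 for PLAU and -1.50 for CPB2. The groups of 3 samples were too small for a search for outlying samples.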

How the results depend on the processing

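In HepG2, 5 genes were called and the same 5 were called under each alternative that kept the fold threshold and without each sample in turn (6, with PLAU, with limma-voom on genes of at least 10 reads); 11 passed the adjusted p alone. In Huh7 the count was 6, but 10 with a pseudocount of 0.1 and 10 with limma-voom (3 higher and 7 lower in each), 13 with limma-voom on genes of at least 10 reads, 21 by the adjusted p alone (6 higher, 15 lower), 5 with the GC trend removed (1 higher, 4 lower, against 3 and 3), and 3 to 8 without 1 sample (3 without resistant replicate 3). Over all genes tested in Huh7, 4187 of 12554 were called with a pseudocount of 0.1 and 4295 of 12552 with limma-voom. The share was 36.7% with limma-voom on genes of at least 10 reads and 70.1% by the adjusted p alone. With the GC trend removed it was 11.9%, and without 1 sample 2469 to 3302 genes were called. SERPINC1 and F12 were called in Huh7 in every fit. F12, like PLG in HepG2, passed the filter through its parental samples only, so its calls in refits of the same samples are a description. Interaction counts were 21 to 24 under the alternatives and 21 to 22 without 1 sample; KNG1 lost its call with limma-voom (adjusted p = 0.0514) and, with TFPI2 and PROS1, with the GC trend removed. Counts between the parental lines were 17 to 24, and 17 to 20 without 1 sample, where FGA (-0.98, -0.99 and -0.96) and PROC (-0.92 and -0.99) lost their calls in some fits. In the main fits, 56.3% of all genes were called for the interaction and 31.9% between the parental lines. With the GC trend removed, 7686 of 13791 genes were called for the interaction and 3606 of 12789 between the parental lines. No value changed its direction among the genes called.

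Deviations of same-numbered samples correlated at 0.08, 0.06 and -0.23 in Huh7 and at 0.25, 0.44 and -0.01 in HepG2. Between the parental lines they correlated at -0.19, -0.05 and 0.18. Differently numbered samples spanned -0.33 to 0.28, -0.42 to 0.21 and -0.33 to 0.36, in the same order. In HepG2 the highest value was thus between same-numbered samples, and 3 samples a group cannot settle whether the numbers pair them. With a replicate block the counts were 6, 5, 22 and 19 in the order of the comparisons above, Huh7 first, then HepG2, interaction and parental lines. Over all genes they were 2841 of 12554, 779 of 11762, 8018 of 13800 and 4097 of 12796 in the same order.

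Over all genes, the HepG2 calls were 387 higher and 350 lower, but 285 and 429 with median-ratio scaling, 309 and 406 with upper-quartile scaling and 279 and 444 with the GC trend removed, which moved the median from 0.12 to 0.01. The interaction calls were 3182 higher and 4586 lower, and 4043 and 3643 with the GC trend removed (median from -0.15 to 0.02). Those between the parental lines were 2482 and 1599, 2090 and 1946 with median-ratio scaling (median from 0.19 to 0.05) and 1776 and 1830 with the GC trend removed (median at 0). Calls in Huh7 numbered 2838, but 4295 with limma-voom and 1487 with the GC trend removed; those in HepG2 numbered 737, but 1157 with limma-voom. Depth limits what can be said of the 7 genes under 1 FPKM.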
